A study of Arabidopsis thaliana with 6 samples.

Results

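The genes described here are 10 S-locus, or G-type, lectin receptor kinases that lie as a tandem cluster on chromosome 1 of Arabidopsis thaliana, from AT1G61360 to AT1G61490. Each was matched by its locus code to a probe set named with that gene alone, and 10 of 10 were found among 22746 probe sets other than controls. All 10 probe sets carry the suffix _at, which on this array design marks a probe set not labelled as shared between transcripts. Tandem copies can be alike in sequence, and how far their RNAs bind each other's probes was not tested. RNA came from seedlings of the pvip1 pvip2 double mutant and of the wild type Col-0, the standard laboratory accession, grown on MS agar at 21°C with 16 h of light and harvested 10 days after germination. Each genotype was measured on 3 single-colour Affymetrix ATH1 arrays labelled as biological replicates. Roots of Col-0 were taken off, and mutant seedlings received a cut through their vestigial hypocotyl as a matching wound. The labels name no allele of either gene and no number of seedlings per sample. The PVIP proteins belong to the PHD-finger family called OBERON and take part in forming meristems. The members were chosen with their difference between the genotypes in view, so their differences are given as a description and without a p value.

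G-type lectin receptor kinases span the plasma membrane. Outside the cell they carry a lectin domain of the bulb type together with regions related to the S-locus glycoproteins of Brassica, and inside it a serine/threonine kinase. The family is named after the S-locus receptor kinase, by which the stigma of Brassica recognises its own pollen. The best known member of the cluster is AT1G61380, named SD1-29 in the gene table and also called LORE, which senses hydroxylated medium-chain fatty acids of bacteria and starts pattern-triggered immunity. Specific ligands of its neighbours are not described here.

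Some features of the arrays bear on every value below. OBE1, a PVIP gene under its other name, stood on the log2 scale at 2.54, 2.61 and 2.53 in pvip1 pvip2. In the arrays labelled Col-0 replicate 1, 2 and 3 it stood at 2.42, 5.08 and 5.17. For this gene the array labelled Col-0 replicate 1 thus goes against its label, and why was not tested. The limma fit over all arrays did not call OBE1 (difference -1.66, adjusted p = 0.1285). OBE2, the other targeted gene, had no probe set named with that gene alone and was not measured here. Over all probe sets, arrays correlated at r = 0.976 to 0.988 within a labelled genotype and at 0.932 to 0.962 between the 2 genotypes. The log2 signal of GAPDH's 3' probe set minus that of its 5' probe set, a measure of RNA quality, was 0.55 to 0.91 in the mutant and 1.08, 0.97 and 2.31 in Col-0 replicates 1, 2 and 3. Replicates 1 and 2 of both genotypes ran on fluidics station 1 and replicate 3 of both on station 2, while the modules within a station were even-numbered for the mutant and odd-numbered for Col-0, so module and genotype cannot be told apart. Of the shoot markers, 5 of 7 were measured, none at the bottom of the scale, and their summed log2 signal ran from 56.3 to 58.7 in the mutant and from 58.4 to 60.1 in Col-0. Although these ranges overlap, all 5 were lower in the mutant in all 3 pairs of same-numbered arrays, with mean differences of -0.59 to -0.27. The limma fit called 0 of the 5 (adjusted p = 0.08435 to 0.3671) and, with the replicate number as a block, 1 of 5, PRK (-0.59, adjusted p = 0.01561). Of the root markers, 3 of 6 were measured, with a summed log2 signal of 18.3 to 20.3 in the mutant and 16.3 to 17.0 in Col-0. EXPA7 and EXPA18, expansins of root hairs, stood at 4.29 and 4.23 on the array of pvip1 pvip2 replicate 2. On the other 5 arrays they lay between 3.10 and 3.63. Their differences of 0.33 and 0.21 were not called (limma adjusted p = 0.484 and 0.6682). The 1 root marker called was PYK10, a beta-glucosidase abundant in roots, with a difference of 1.76 (limma adjusted p = 9.249e-05). It averaged 11.78 ± 0.02 in the mutant and 10.02 ± 0.04 in Col-0 (SD, n = 3 each). Its genotypes did not overlap, whereas those of EXPA7 and EXPA18 did, so the sums stand apart through PYK10. The part of these tissue markers and of RNA quality in the differences below was not tested.

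The cluster split sharply along the chromosome. Its first 3 genes, AT1G61360, AT1G61370 and AT1G61380, were all higher in the mutant, by 1.91 to 2.40 on the log2 scale. The other 7, from AT1G61390 to AT1G61490, lay between 1.97 and 3.26 on every array of either genotype, near the bottom of the scale, and their differences ran from -0.06 to 0.35.

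AT1G61360, the first gene of the cluster and a G-type lectin receptor kinase, gave log2 signals of 7.07, 7.25 and 7.81 on the mutant arrays, against 4.65, 5.05 and 5.24 in the Col-0 arrays. All 3 mutant arrays were above all 3 Col-0 arrays, with a gap of 1.82 between the closest of them. The mean was 7.38 ± 0.39 in the mutant and 4.98 ± 0.30 in Col-0 (SD, n = 3 each), a difference of 2.40 (SE 0.25) or 5.27-fold. In the same order of replicates the differences between arrays of the same number were 2.42, 2.20 and 2.57.

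AT1G61370, the second receptor kinase, had signals of 5.02, 5.64 and 5.44 in the mutant arrays, against 3.22, 3.46 and 3.53 in the Col-0 arrays. The genotypes again did not overlap, with a gap of 1.50. The means were 5.37 ± 0.32 in the mutant and 3.40 ± 0.16 in Col-0 (SD, n = 3 each), and the difference was 1.96 (SE 0.21) or 3.90-fold. Its Col-0 mean lay under 3.81, the 40th percentile of mean signals over all probe sets, so the size of this fold depends on how the authors treated background. The TAIR10.1 gene models of AT1G61360 and AT1G61370 overlap at their ends, and no probe positions were used here, so a share of signal between them was not tested.

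AT1G61380, the fatty acid sensor, had signals of 6.16, 6.04 and 6.0 in the mutant arrays, against 3.61, 4.19 and 4.67 in the Col-0 arrays. The mutant arrays were close together and above all Col-0 arrays by at least 1.33, while the Col-0 arrays were spread widely. The means were 6.07 ± 0.08 in the mutant and 4.16 ± 0.53 in Col-0 (SD, n = 3 each), a difference of 1.91 (SE 0.27) or 3.77-fold. Between arrays of the same number the difference was 2.55, 1.85 and 1.33 for replicates 1, 2 and 3, so the range among pairs came mostly from Col-0.

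These RNA samples hold whole shoots, in which a gene made in more cells and a gene made more strongly per cell cannot be told apart. The differences of AT1G61360, AT1G61370 and AT1G61380 were 2.23, 1.87 and 1.64 when the array labelled Col-0 replicate 1 was left out. They were 2.53, 2.03 and 2.17 when Col-0 replicate 3 was left out instead, and 2.46, 1.83 and 1.93 without pvip1 pvip2 replicate 2, the array with the higher root-hair signals. On the first fluidics station alone, with 2 arrays of each genotype, they were 2.31, 1.99 and 2.20. The differences were damped to 1.27, 0.50 and 0.67 when 64 was added to the linear signals, a setting that shrinks any change near the bottom of the scale.

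**Figure D1:**
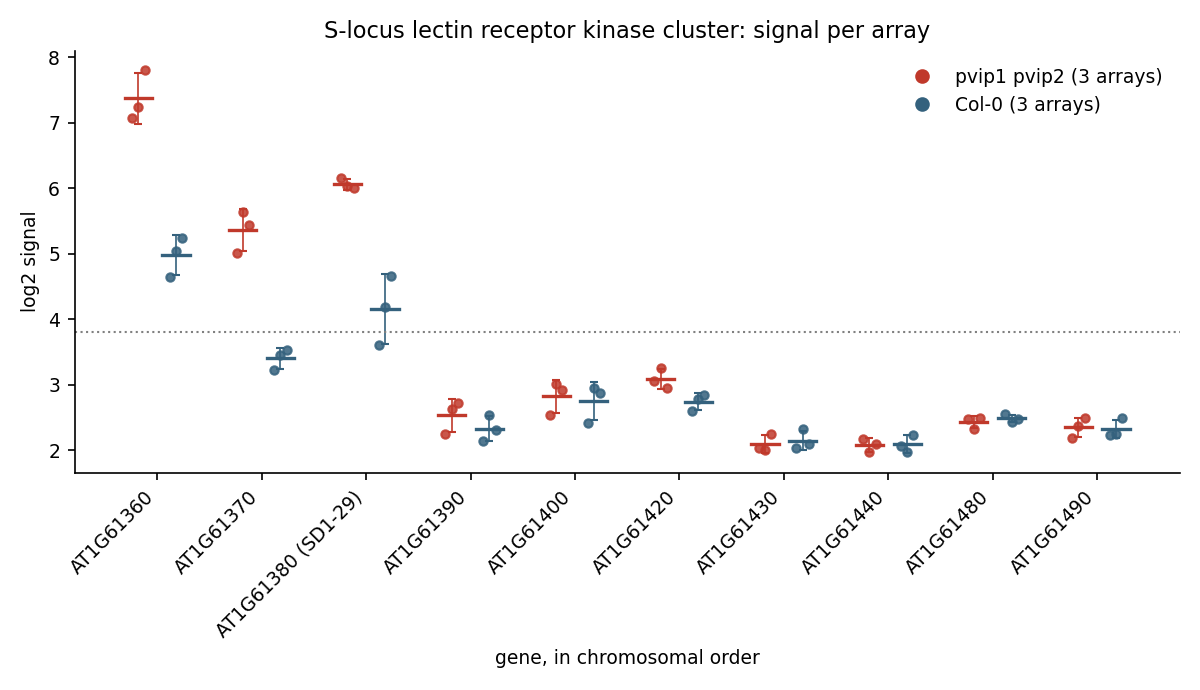
Log2 signal (vertical axis) of the 10 cluster members in chromosomal order, with pvip1 pvip2 left of Col-0 for each gene; points are single arrays, bars the mean and whiskers the SD (n = 3 each), and the dotted line is the 40th percentile of mean signals, 3.81. The genotypes stand apart at AT1G61360, AT1G61370 and AT1G61380, while the 7 genes from AT1G61390 on lie between 1.97 and 3.26 on all arrays; heights of different genes are not comparable, since each has its own probes.

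AT1G61390 is the next receptor kinase after AT1G61380, and it had signals of 2.25, 2.63 and 2.72 in the mutant arrays, against 2.15, 2.54 and 2.31 in the Col-0 arrays. The genotypes overlapped, with a difference of 0.20 (SE 0.14). AT1G61400 had 2.54, 3.01 and 2.92 in the mutant arrays, against 2.42, 2.95 and 2.88 in the Col-0 arrays, a difference of 0.07 (SE 0.17). In both genes the 2 arrays numbered 1 lay below the other 4. Arrays of the same number differed by 0.04 to 0.13 in AT1G61400, and by 0.10, 0.10 and 0.41 in AT1G61390.

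AT1G61420, the sixth member, was the only one of the 7 with no overlap between the genotypes. It had signals of 3.06, 3.26 and 2.95 in the mutant arrays, against 2.60, 2.79 and 2.84 in the Col-0 arrays, a difference of 0.35 (SE 0.12) with a gap of 0.12. All 6 arrays lay under the 40th percentile of mean signals, and adding 64 to the linear signals brought the difference to 0.04.

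The last 4 members had overlapping genotypes. AT1G61430 stood at 2.09 ± 0.14 in the mutant and 2.15 ± 0.15 in Col-0, and AT1G61440 at 2.08 ± 0.10 in the mutant and 2.09 ± 0.14 in Col-0 (SD, n = 3 each). AT1G61480 stood at 2.43 ± 0.09 in the mutant and 2.49 ± 0.05 in Col-0, and AT1G61490, the last gene of the cluster, at 2.35 ± 0.15 in the mutant and 2.33 ± 0.14 in Col-0 (SD, n = 3 each). Their differences were -0.06, -0.01, -0.05 and 0.03. The SE of these differences was 0.08 to 0.10, and the overlap does not show that the 4 genes did not change.

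Over the 10 members the median difference was 0.14, against -0.05 over all 22746 probe sets. In the limma fit over all probe sets, 3 of 10 members were called higher at a Benjamini-Hochberg adjusted p under 0.05 and 0 lower, beside 6.85% of all probe sets called higher and 6.51% lower. The genotypes did not overlap, with the mutant above, in 4 of 10 members and in 13.4% of all probe sets. The members were chosen on this contrast, so nothing is read from these counts. A difference at least as high as that of AT1G61380 was seen in 406 probe sets, or 1.78% of all.

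The genes around the members were examined for how far the raised signal reached. The 17 annotated loci from AT1G61360 to AT1G61490 and the 20 loci on each side hold 47 loci that are not members. Of these, 11 had a probe set named with that gene alone. Since the annotation leaves 8730 probe sets unnamed, the array may hold probes for other loci too, among them FBS1 beside AT1G61350. Those loci were not examined, so the reach of the raised signal can be read only at the measured genes. Of the 11, only 2, AT1G61350 and AT1G61240, had a mean over all arrays above the 40th percentile of mean signals. The others lay under it, and a missing call there does not show that a gene did not change. The limma fit called 1 of the 11 higher and 1 lower, which is 18.2% beside 13.4% of all probe sets called in either direction. The median difference of the 11 was -0.09, against -0.05 over all probe sets.

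Before the cluster, AT1G61350 is the immediate neighbour of AT1G61360. It had signals of 5.93, 5.80 and 6.02 in the mutant arrays, against 6.01, 6.11 and 6.15 in the Col-0 arrays, well above the bottom of the scale. Its difference of -0.18 (SE 0.17) was not called (limma adjusted p = 0.5614), and its genotypes overlapped. Farther out, AT1G61280, AT1G61260 and AT1G61240 had differences of -0.15, -0.26 and -0.03, and none was called (limma adjusted p = 0.4863, 0.3912 and 0.965). The loci between AT1G61280 and AT1G61350 have no probe set of their own named here.

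Inside the interval 3 non-members were measured. AT1G61410 and the receptor kinase AT1G61460 had differences of -0.06 and 0.11 and AT1G61450 one of -0.36, and none was called (limma adjusted p = 0.6936, 0.3931 and 0.1424). With the array labelled Col-0 replicate 1 left out, AT1G61450 stood at -0.49 (limma adjusted p = 0.03998). All 3 lay at 3.07 or below on every array.

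Past the last member, AT1G61500, a receptor kinase of the same family, fell. It had signals of 2.29, 2.46 and 2.79 in the mutant arrays, against 2.86, 3.24 and 3.13 in the Col-0 arrays, a difference of -0.56 (SE 0.15, limma adjusted p = 0.04647). The genotypes were 0.06 apart, and the call was lost in 8 of 12 alternatives, among them without pvip1 pvip2 replicate 1 or 2 and without Col-0 replicate 2 or 3 (limma adjusted p = 0.129, 0.1372, 0.1399 and 0.1202). AT1G61550 and AT1G61610, likewise of the family, had differences of 0.05 and -0.09 and were not called (limma adjusted p = 0.6785 and 0.6448).

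AT1G61590, a receptor-like cytoplasmic kinase with no lectin domain, rose. It stands at place 33 in the gene order counted from AT1G61360, where AT1G61490 has place 17. Its signals were 3.66, 3.80 and 3.69 in the mutant arrays, against 2.67, 2.84 and 2.67 in the Col-0 arrays, and the genotypes did not overlap. The difference was 0.99 (SE 0.12, limma adjusted p = 0.001371), and it was called in 12 of 12 alternatives. Both genotypes lay under the 40th percentile of mean signals, and the difference was 0.13 with 64 added to the linear signals.

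**Figure D2:**
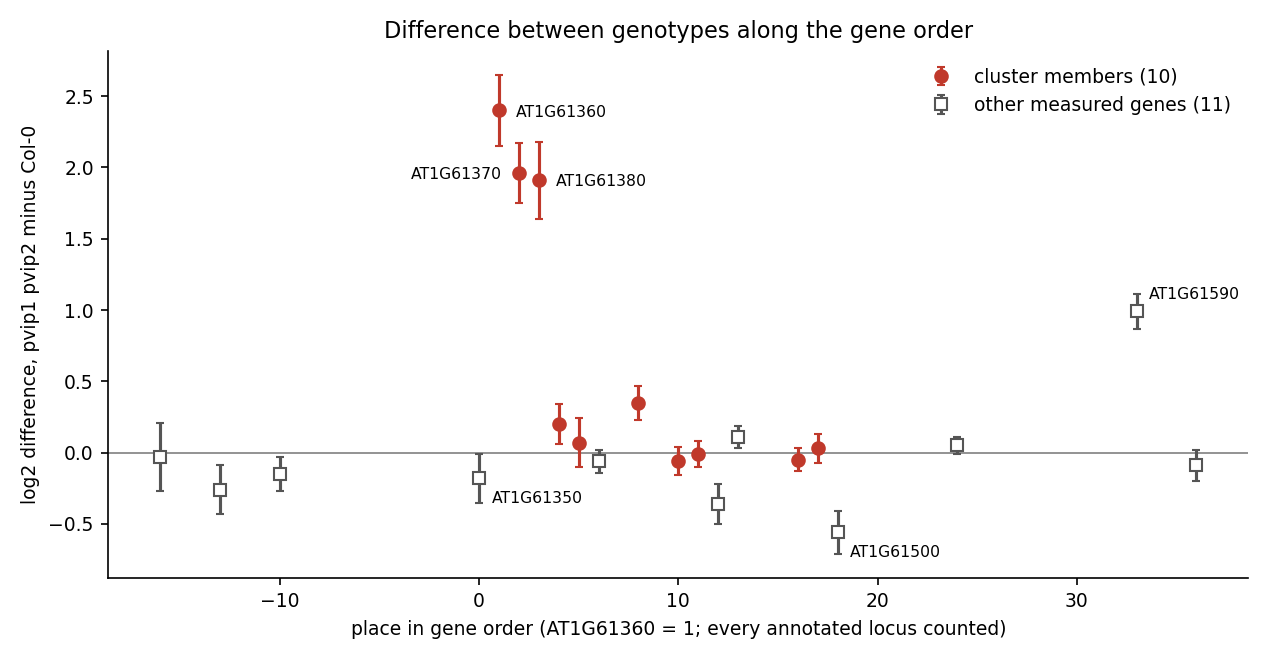
Log2 difference between pvip1 pvip2 and Col-0 (vertical axis, whiskers SE) by place in the gene order of the TAIR10.1 table, counted over every annotated locus from AT1G61360 at place 1; filled points are the 10 members and open squares the 11 other measured genes. AT1G61360, AT1G61370 and AT1G61380 lie between 1.91 and 2.40, AT1G61350 just before them at -0.18 and AT1G61390 just after them at 0.20.

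Variation among replicates of one genotype was examined next, since the choice of members did not use it. Replicate 1 was the lowest of the 3 arrays in both genotypes for 5 of 10 members, AT1G61360, AT1G61370, AT1G61390, AT1G61400 and AT1G61490, beside 22.2% of all probe sets. For AT1G61390, AT1G61400 and AT1G61490 both arrays numbered 1 lay below the other 4, which held for 11.3% of all probe sets. AT1G61400 gave the clearest case. Its signals differed by 0.13, 0.05 and 0.04 between arrays of the same number, while they spanned 0.59 over all 6 arrays. These are counts over few genes, of which AT1G61390, AT1G61400 and AT1G61490 lay near the bottom of the scale, and no test was made of them. The median log2 signal over all probe sets was also lowest in replicate 1 of each genotype, at 4.57 in the mutant and 4.54 in Col-0. Its part in these counts was not tested. AT1G61380 did not follow, since replicate 1 was its highest array in the mutant and its lowest in Col-0.

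**Figure D3:**
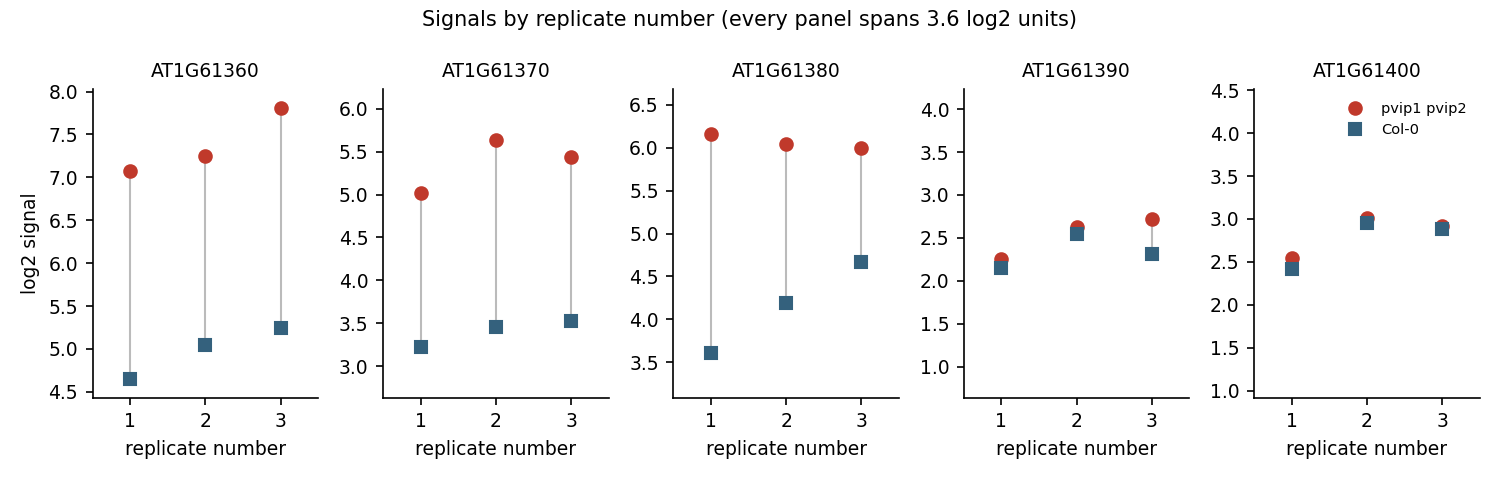
Log2 signal (vertical axis, every panel spanning 3.6 units) of 5 members by replicate number, with circles for pvip1 pvip2, squares for Col-0 and a line joining arrays of the same number. The lines are long at AT1G61360, AT1G61370 and AT1G61380, whose pairs differ by 1.33 to 2.57, and short at AT1G61390 and AT1G61400, whose pairs differ by 0.04 to 0.41.

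The 3 raised members had similar profiles over the 6 arrays. With each gene centred on its own mean, the root mean square difference was 0.321 between AT1G61360 and AT1G61370, 0.385 between AT1G61360 and AT1G61380 and 0.314 between AT1G61370 and AT1G61380, all in log2 units. Against the other 7 members it ran from 0.824 to 1.26. Among 13426 probe sets of other genes, some lay closer than the neighbours did. The nearest to AT1G61360 were AT2G18360, AT3G16530 and AT1G62790, at 0.174, 0.178 and 0.184, with differences between genotypes of 2.19, 2.57 and 2.24. AT3G16530 encodes a legume-type lectin-like protein, another class of lectin than the S-locus type. The nearest to AT1G61380 were AT1G69450, GSTU27 and AT1G13750, at 0.180, 0.214 and 0.234, of which GSTU27 encodes a glutathione S-transferase. With 6 arrays in 2 genotypes this measure rests mostly on the size of the difference between genotypes.

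Other G-type lectin receptor kinases did not move as one. Of 29 listed genes outside the cluster's members, 18 had a probe set named with that gene alone, 4 of them among the flanking genes above. The limma fit called 4 of the 18 higher and 3 lower. That is 38.9%, beside 13.4% of all probe sets. The median difference was 0.05, against 0.14 for the cluster's members and -0.05 over all probe sets.

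AT2G19130 rose the most of them, with signals of 6.69, 7.25 and 7.10 in the mutant arrays, against 5.50, 5.55 and 5.80 in the Col-0 arrays. The genotypes did not overlap, and the difference was 1.40 (SE 0.20, limma adjusted p = 0.003132), or 2.63-fold. B120 (AT4G21390) had signals of 3.47, 3.77 and 3.59 in the mutant arrays, against 2.28, 2.42 and 2.28 in the Col-0 arrays, and it rose by 1.28 (SE 0.12, limma adjusted p = 0.000383). Both were called in all of their alternatives, 13 for AT2G19130 and 12 for B120, although B120 lay under the 40th percentile of mean signals on every array. With 64 added to the linear signals the difference was 0.78 for AT2G19130 and 0.14 for B120.

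AT5G35370 rose by 1.27 (SE 0.27, limma adjusted p = 0.0163), a call lost without pvip1 pvip2 replicate 3 (0.06309) or Col-0 replicate 2 (0.06714). AT4G27300 stood at 7.45, 7.05 and 7.52 in the mutant arrays, against 5.73, 6.40 and 6.80 in the Col-0 arrays. It rose by 1.03 (SE 0.28, limma adjusted p = 0.04468), and its Col-0 values were spread as those of AT1G61380 were, lowest in replicate 1 and highest in replicate 3. Its call was lost in 5 of 6 fits that left out an array, all but the one without Col-0 replicate 3. The lowest of those adjusted p values was 0.06222 and the highest 0.1393.

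On the lower side, AT1G11280 and AT1G11410, members of another tandem group on chromosome 1, fell. AT1G11280 had a difference of -0.82 (SE 0.21, limma adjusted p = 0.03676) and AT1G11410 one of -0.94 (SE 0.26, limma adjusted p = 0.04915). Each call was lost in 5 of 6 fits that left out an array, the exceptions being the fit without Col-0 replicate 1 for AT1G11280 and that without Col-0 replicate 2 for AT1G11410. With 64 added to the linear signals AT1G11410 stood at -0.28 and was not called (limma adjusted p = 0.08581). The third called lower was AT1G61500, described above, with signals near the bottom of the scale. AT1G11330, from the same group, known as RDA2 and a sensor of a sphingolipid of microbes, stood at 0.80 (SE 0.23, limma adjusted p = 0.05538, or 0.01964 in the fit with a replicate block). The values of that tandem group thus lay on both sides of 0.

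**Figure D4:**
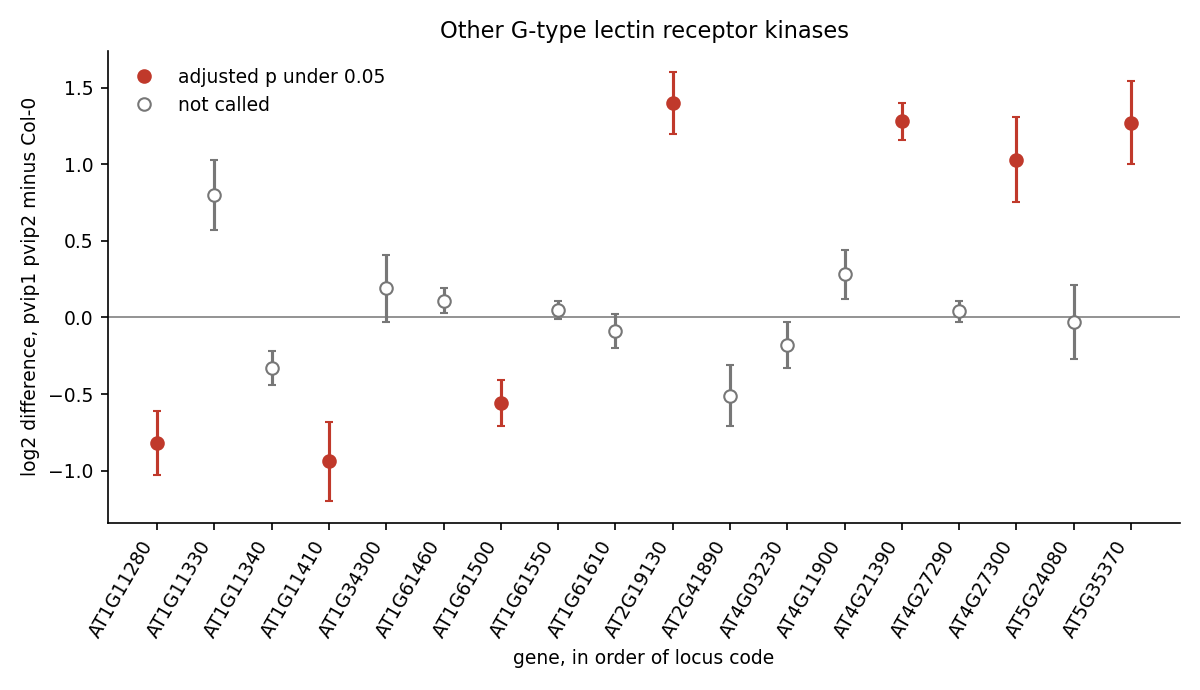
Log2 difference between pvip1 pvip2 and Col-0 (vertical axis, whiskers SE) of 18 G-type lectin receptor kinases outside the members, in order of locus code; filled points were called by limma at an adjusted p under 0.05 and open ones were not. Called genes lie on both sides of 0, from -0.94 at AT1G11410 to 1.40 at AT2G19130.

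The few measured genes of pattern-triggered immunity, the pathway in which AT1G61380 acts, were mostly higher in the mutant. Of 34 listed receptors, kinases, ubiquitin ligases and response genes, 8 had a probe set named with that gene alone. The annotation leaves 8730 probe sets unnamed, so the array may hold probes for more of the 34. The limma fit called 7 of the 8 higher and 0 lower, beside 6.85% of all probe sets called higher, and the median difference was 1.39. WRKY53 and many other defence genes were known to be higher in these data when the list was drawn up, so its count is no independent evidence, and the 26 other genes were not analysed here.

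Among receptors and their kinases, EFR, the receptor for a bacterial elongation factor, had signals of 3.89, 4.81 and 4.20 in the mutant arrays, against 3.02, 3.41 and 3.61 in the Col-0 arrays. It rose by 0.95 (SE 0.26, limma adjusted p = 0.0465), a call lost without any 1 of the arrays except pvip1 pvip2 replicate 1, with adjusted p from 0.06618 to 0.1175. With 64 added to the linear signals EFR stood at 0.18 and was not called (limma adjusted p = 0.07356). BIK1, a cytoplasmic kinase that passes on the signal of several immune receptors, had 8.14, 8.57 and 8.63 in the mutant arrays, against 7.06, 7.03 and 6.72 in the Col-0 arrays. Its genotypes did not overlap, and it rose by 1.51 (SE 0.19, limma adjusted p = 0.001621). AT3G28690, known as PBL36 and one of the cytoplasmic kinases that act downstream of LORE, stood at 6.63 ± 0.25 in the mutant and 6.66 ± 0.11 in Col-0 (SD, n = 3 each). Its difference of -0.02 (SE 0.19) was not called (limma adjusted p = 0.9546).

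The U-box ubiquitin ligases PUB22, PUB23 and PUB24 dampen the same pathway, and all 3 rose. PUB22 had signals of 7.48, 7.52 and 7.91 in the mutant arrays, against 4.23, 4.35 and 4.78 in the Col-0 arrays, a difference of 3.18 (SE 0.22, limma adjusted p = 0.0001071), or 9.07-fold. PUB23 rose by 2.28 (SE 0.20, limma adjusted p = 0.0002786) and PUB24 by 0.95 (SE 0.17, limma adjusted p = 0.007838). On the first fluidics station alone PUB24 was not called (limma adjusted p = 0.1113). The transcription factor WRKY22, a target of the pathway's MAP kinases, rose by 1.85 (SE 0.25, limma adjusted p = 0.002056). With 64 added to the linear signals PUB22, PUB23, PUB24 and WRKY22 had differences of 1.61, 0.87, 0.22 and 0.96, and each was still called.

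**Figure D5:**
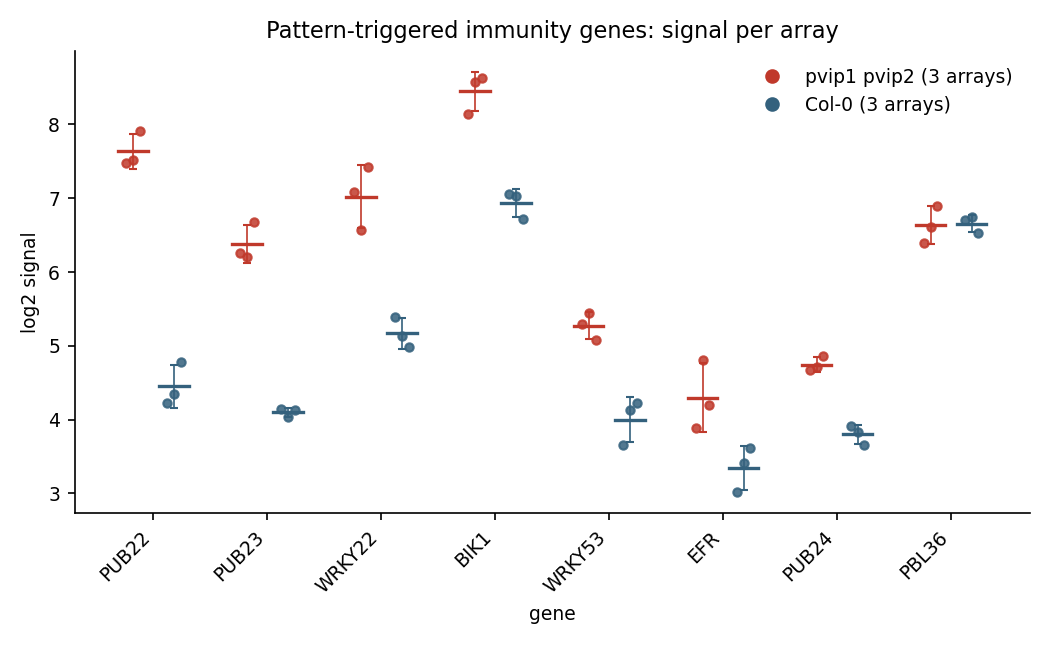
Log2 signal (vertical axis) of the 8 measured genes of pattern-triggered immunity, ordered by their difference, with pvip1 pvip2 left of Col-0; points are single arrays, bars the mean and whiskers the SD (n = 3 each). The mutant arrays lie above all Col-0 arrays in 7 genes and overlap them in PBL36.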

How the data were processed

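The deposited table holds log2 signals of 22810 probe sets on 6 arrays. Their summarising, background correction and normalization by the authors were not given in the sources used here. The submitters' processing notes name GCOS without a version. Base 2 follows from the range of the values. The deposited scanner setting files hold other values, of which the station and module of each array were used. After 64 controls were left out, 22746 probe sets remained, of which 13513 have 1 gene, 503 several and 8730 are unnamed here. Of the 13513, the TAIR10.1 gene table, used for names and gene order, held 13436. The platform annotation names no build, so no coordinates are given, and no sequences were used here.

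Comparisons of the genotypes used limma 3.58.1 under R 4.3.3 (lmFit, eBayes with a trend, two-sided, Benjamini-Hochberg over all 22746 probe sets, no level filter, called under 0.05), after a check on simulated data. Precision is limited by the number of arrays, with a median SE of 0.179. The p values reflect spread among samples that are labelled as biological replicates. Across probe sets, deviations from genotype means of same-numbered arrays correlated at r = 0.5387, 0.3115 and 0.1213, each over 0.1, so the numbers were taken to pair the arrays. Of the 6 differently numbered pairs, pvip1 pvip2 replicate 2 with Col-0 replicate 3 correlated at 0.2277, above the third of these. The other 5 correlated at -0.4127 to 0.09886. The main fit did not use the pairing, which entered as a replicate block among the alternatives.

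The members and lists were chosen with earlier results of these data known. The rule for named genes took all members, the measured flanking genes nearest the cluster (up to 5 a side) and inside it, called G-type lectin genes and the largest changes among them, up to 8 called immunity genes, and the 3 nearest profiles. AT1G11330 and AT3G28690 were named after their values were seen. Alternatives were a level filter, replicate and station blocks, no variance trend, quantile normalization, a pseudocount of 64, the first station alone and each array left out.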

Additional observations from a re-analysis of the deposited data

How the results depend on the processing

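Of 120 values of the 10 members under 12 alternatives, 116 moved by less than the SD between replicates. The 4 that moved were AT1G61360, AT1G61370, AT1G61380 and AT1G61420 with a pseudocount of 64, and the median of the members ran from 0.012 to 0.28. The total of 3040 called probe sets was 946 on the first fluidics station alone and between 1773 and 2800 with 1 array left out. The replicate block gave 4369. Among named genes it changed only the calls of OBE1 (limma adjusted p = 0.04819), AT1G11330 and the shoot marker PRK. The 2 flanking genes called became 0 with the level filter, which left out both of them, and 1 with no variance trend, with quantile normalization, with a pseudocount of 64 and on the first station alone, and 1 to 3 with 1 array left out. The 7 other G-type lectin genes called became 4 with no variance trend, 3 on the first station alone, and 3 to 5 with 1 array left out, while the 7 immunity genes called ranged from 5, on the first station alone, to 7. Causes of these losses were not tested. The fits on 1 station and those with 1 array left out also rest on fewer arrays. Among the members, 10 values of 4 genes turned sign, none larger than 0.09 in size. AT1G61400 stood at -0.02 without pvip1 pvip2 replicate 2 and at -0.09 with Col-0 replicate 1 left out, AT1G61430 at 0.03 without Col-0 replicate 2, AT1G61440 at 0.02 to 0.06 in 4 alternatives and AT1G61490 at -0.04 to -0.01 in 3. Among the other named genes signs turned for AT1G61240, at 0.11 on the first station alone, 0.10 without pvip1 pvip2 replicate 1 and 0.16 without Col-0 replicate 3, and for AT1G61610, at 0.01 without the array labelled Col-0 replicate 1, none of them called. With 1 array left out the 2 genes ran from -0.22 to 0.16 and from -0.16 to 0.01. Without Col-0 replicate 1 OBE1 stood at -2.56 (adjusted p = 0.0002657). The level filter gave no median of the members, of which 3 passed it.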
